A study of Mus musculus with 12 samples.

Results

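Of the 27942 genes of the deposited expression tables that were analysed, 1587 rows have the biotype microRNA. Of these rows, 88 carried enough reads to be described here. They were chosen by level: an FPKM (fragments per unit of gene length and of library size) of 1 or more in at least 3 of 6 libraries, leaving out Mir675, Gm25745 and Gm47302 by name. The rule passed 90 rows, 2 of which were among the 3 left out by name. Of all 1587 microRNA rows, 905 were listed at 0 in every library and 682 held a read. The members' levels were the values that chose them, so levels are given as a description and carry no test.

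The cells were C2C12, an established line of mouse myoblasts that fuses into myotubes when serum is lowered. In both groups cells reached 80% density with 10% fetal bovine serum before 7 days in 2% horse serum. The control group (n = 3) was untreated, with no vehicle named in the labels, and the OI group (n = 3) received 25 µmol/L 4-octyl itaconate, a cell-permeable ester of the metabolite itaconate. The comparison asks what OI did to transcripts of cells induced to differentiate. All libraries come from 1 cell line, and nothing in the labels ties the 3 libraries of a group to separate cultures. The p-values then measure the spread between these samples alone, which may be technical. A further set of 3 control and 3 OI samples was not analysed here.

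MicroRNAs are short RNAs cut from hairpins. A long primary transcript is trimmed by Drosha in the nucleus to a hairpin precursor, which Dicer cuts to the mature strand, and bases 2 to 8 of that strand, the seed, pair with target messages. Some hairpins are whole short introns, called mirtrons, that splicing rather than Drosha sets free. Libraries of the kind used here are made from longer RNA, so no value below measures a mature microRNA. Reads at these loci can be primary transcript, host transcript or precursor. They can also be RNA of a gene opposite the locus or of a gene with a near-identical stretch. In skeletal muscle the microRNAs of the Mir1, Mir133 and Mir206 families are known for their part in differentiation.

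Recovered from the FPKM values, library sizes ran from 24441000 to 36274000 units, either reads or fragments (called reads below). Of 13 fixed myotube marker genes 1 was among the genes analysed: Tnnc1, the troponin C of slow and cardiac muscle, was at 140, 110 and 128 FPKM in control and 24.7, 23.0 and 21.9 in OI. None of the fixed markers of undifferentiated myoblasts, fibroblasts, adipocytes, osteoblasts, blood cells and endothelium was among the genes analysed.

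The microRNA lists fixed for muscle touched the members at few points. Of 13 muscle microRNAs (the Mir1, Mir133, Mir206, Mir208, Mir486 and Mir499 families) 2 were among the genes analysed, Mir133c and Mir1a-2; 1 held a read and neither was a member. Of 31 microRNAs of myoblast growth and differentiation 3 were analysed and 1, Mir378a, was a member. Of 12 let-7 loci 3 were analysed and 1, Mirlet7e, was a member. The Mir17-92 list (15 loci) and the redox and stress list (10 loci) had no locus among the genes analysed, and none of the 21 analysed loci of the Dlk1-Dio3 region held a read. Among the 88 loci, only Mir378a and Mirlet7e were on these lists. Most listed loci were not among the genes analysed, and whether those held reads is not shown here.

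Of the 88 members, 54 carry a Mir symbol and 34 a predicted symbol beginning with Gm. RefSeq (GRCm38.p6) lists mature strands for 48 of them (54.5%), against 661 of all 1587 microRNA rows (41.7%). The 73 mature strands were each found in the sequence of their locus. The following are the mature strands of the 7 loci with a RefSeq entry whose control and OI libraries do not overlap, with the seed in capitals.
miR-7001-5p: aGGCAGGGugugagcgugagcau
miR-7001-3p: cGCUCACAcucccucugcag
miR-3074-5p: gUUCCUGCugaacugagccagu
miR-6363: uGUAGACUggacuguccucaaa
miR-6942-5p: uAGGAGGAggggaacauuugc
miR-6942-3p: uUAUGGUUcucuccaccucuca
miR-7662-5p: aGGGCUGAggccuggauccagc
miR-7662-3p: uGGAGCCAggcggaucagccuugc
miR-1905: cACCAGUCccaccacgcgguag
miR-6909-5p: cAGGGGGGcuggaaugggcacu
miR-6909-3p: uGCCUUCCccggccucccacag

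Shared seeds were few. Mir3074-1 and Mir3074-2 give the same strand, printed above. Mir8099-1 and Mir8099-2 are 100% identical over 127 bases and give 1 strand, and miR-2861 shares its seed with miR-3091-3p. The strands are shown to let the seeds be compared.
miR-8099: cCAAGGCGugggaaagguugu
miR-2861: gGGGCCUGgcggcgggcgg
miR-3091-3p: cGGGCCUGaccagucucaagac

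Most members lie inside or opposite another gene. Positions are those of GENCODE M21 on GRCm38, which all 88 members share with the deposited tables. Of the members, 84 lie within another gene. An exon on the opposite strand holds 38 of them, an intron on the same strand 26, an exon on the same strand 15 and an intron on the opposite strand 5, and 4 lie outside other genes. Rows opposite an exon passed the level rule most often: 38 of 129 such rows (29.5%) were members, against 15 of 298 rows (5.03%) in a same-strand exon, 26 of 542 (4.80%) in a same-strand intron, 5 of 162 (3.09%) opposite an intron and 4 of 456 (0.877%) outside other genes. No source used here gives the strand setting of the counting, so reads of a locus and of the exon opposite it cannot be told apart.

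**Figure D1:**
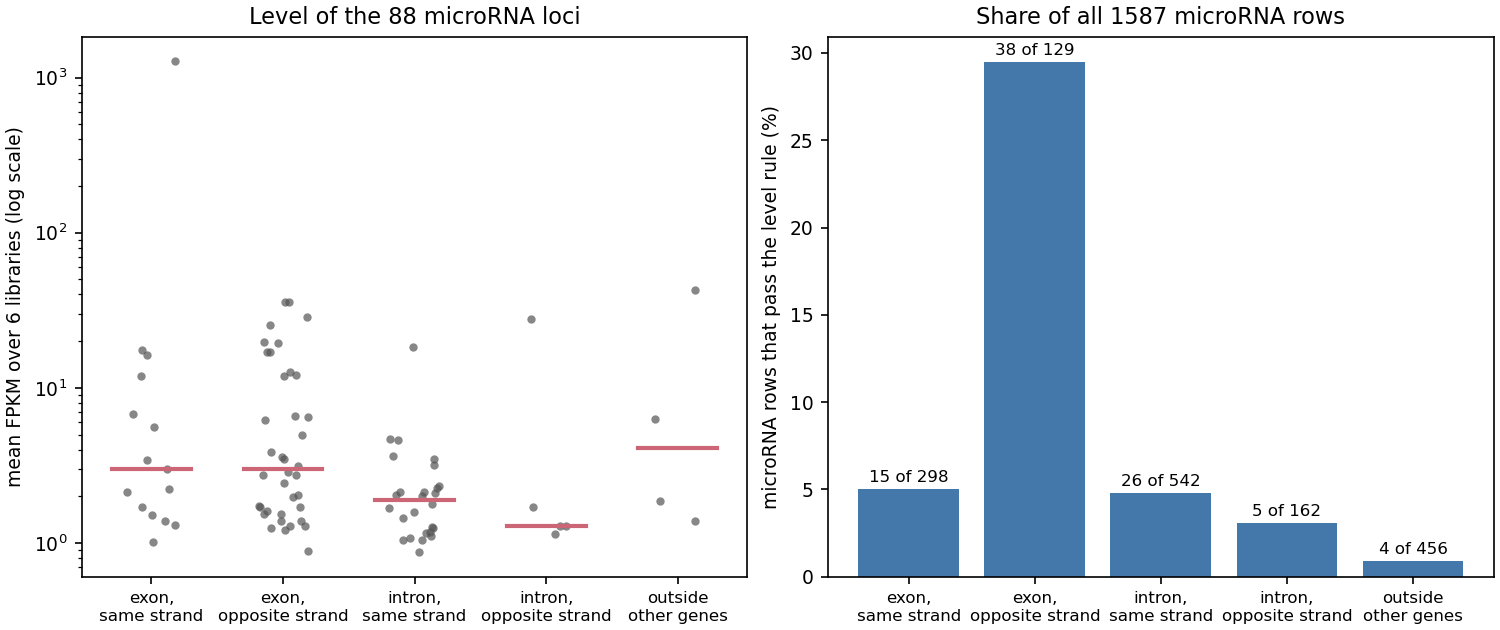
Left, mean FPKM over 6 libraries (log axis) of each of the 88 microRNA loci by position in other genes, 1 point per locus, with the median of each class as a line; right, the share of all microRNA rows of each class that passes the level rule (%, from 0), with the counts above the bars. Class medians run from 1.29 to 4.09 FPKM, and the share reaches 29.5% for rows opposite an exon.

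Levels were low and the reads behind them few. Over the 88 loci the mean ran from 0.871 to 1274 FPKM with a median of 2.14, 18 loci reached 10 FPKM and 53 stayed under 3. Loci of 56 to 143 bases (median 83) need only 2 to 6 reads to reach 1 FPKM. The median over members of the median reads per library was 6, a count whose exact 95% Poisson interval runs from 2.20 to 13.1, and this interval covers counting error only. Over all 1737 genes tested, whatever their number of exons, the same median was 101.5. A median of 10 reads or more was found in 31 members, of under 5 in 36 and of 100 or more in 3. All members together held 3905 to 5316 reads per library (0.0147% to 0.0167% of the library), and without Gm27597, the highest, 1404 to 1715 reads.

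The spread between replicates was near counting error for most loci. Scaled by library size, the squared deviation of reads from the group's share was divided by that expected share and by its 4 degrees of freedom. For counting error alone this ratio would average near 1, with a median below 1. Its median over the 88 loci, which include same-strand loci listed at 1 read such as Mir7662 (0.133), was 0.687, and 73 were under 2. It was over 3 in 11 loci, led by Gm24187 (183), Gm47308 (85.9), Mir8114 (40.0), Gm25911 (23.0), Gm27671 (11.4), Gm27597 (10.1) and Mir8112 (9.34).

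The lowest members rested on a few reads, and the highest rows outside the rule on 1 or 2 libraries. Inside, Mir7046 (in an intron of Rabac1) held 1, 1 and 3 reads in control and 3, 0 and 2 in OI, Gm27530 (opposite Foxf1, a fork head factor) 2, 3 and 4 against 1, 5 and 1, and Mir7662 1, 1 and 1 against 2, 3 and 3. Outside, Gm47299 held 610, 1 and 1 reads against 2, 3 and 1, so its mean was high through control replicate 1. Mir6236 held 81, 0 and 3 against 6, 3 and 3, and Gm27529 11, 1 and 1 against 14, 1 and 1. Of the members, 51 were at 1 FPKM or more in all 6 libraries, 3 were at 0 in some library, and 2 (Mir6909 and Mir7662) passed through the OI libraries alone, so that a difference was built into their choice.

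Among the 15 loci in a same-strand exon the highest member of all was Gm27597, 80 bases at chr11:98029413-98029492 within coding sequence of Rpl19, a protein of the large ribosomal subunit. It stood at 1290, 1215 and 1291 FPKM in control and 1389, 1241 and 1217 in OI (2522, 2967 and 3098 reads against 3570, 3601 and 2501). The groups overlapped. The transcripts of 27 other genes, several of them Rpl19 pseudogenes, hold a near-identical copy, defined as 90% identity or more over 80% of the locus or more. One such copy is the row Gm27529, with 1 to 14 reads.

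In 4 same-strand loci the reads were either at 1 or at 10 or more, with nothing between. This set was chosen after its values were seen. Gm47308 (chr9:64726624-64726730), across coding and untranslated sequence of Rab11a (a small GTPase of recycling endosomes), held 1, 113 and 107 reads in control and 1, 1 and 100 in OI. Mir8114 (chr1:153899926-153900036) has 93 of its 111 bases in untranslated sequence of Glul (glutamine synthetase) and faces an exon of Teddm2 over all 111. It held 68, 1 and 1 reads against 58, 59 and 42. Both were at 1 read in libraries of control: Gm47308 in replicate 1, Mir8114 in replicates 2 and 3. Gm27671 (chr16:14128566-14128631), in coding sequence of Marf1, held 14, 1 and 14 against 32, 1 and 15 reads. Mir8112 (chr6:71271671-71271801), in untranslated sequence of Krcc1 and opposite an intron of Smyd1, a muscle methyltransferase, held 13, 15 and 18 against 1, 1 and 17. No library was at 1 read in all 4 loci, OI replicate 3 was at 1 read in none, and except for Mir8114 in OI and Mir8112 in control the replicates of a group lay on both sides. Such a pattern was found in 4 of 88 members (4.55%) and in 17 of all 1737 genes tested (0.979%). Only rows that reach 10 reads can show it, and these were 44 of the members and 1658 of the genes tested.

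The value of exactly 1 read was frequent in same-strand exons. Of the 682 microRNA rows with a read, 144 were at exactly 1 read in each of the 6 libraries, whose sizes differed. In same-strand exons this held for 130 of 221 rows with a read (58.8%), in same-strand introns for 12 of 252 (4.76%), opposite an intron for 1 of 56 (1.79%), outside genes for 1 of 75 (1.33%) and opposite an exon for 0 of 78. Within a same-strand exon, a read number of 1 is therefore given here as listed and is not read as a measured level. Mir3082, in coding sequence of Stub1 (a ubiquitin ligase that works with chaperones) and opposite Jmjd8, had no library at 1 read, with 25, 34 and 36 reads in control and 36, 31 and 23 in OI. Mir5133, in untranslated sequence of Glce, an enzyme of heparan sulfate synthesis, held 11, 10 and 16 reads against 16, 15 and 9. Mir692-2 in the ferritin pseudogene Ftl2-ps (3 to 10 reads, with 19 near-identical copies) and Mir1291, which lies in the small nucleolar RNA Snora34 (8 to 16 reads), had values above 1 read in every library.

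**Figure D2:**
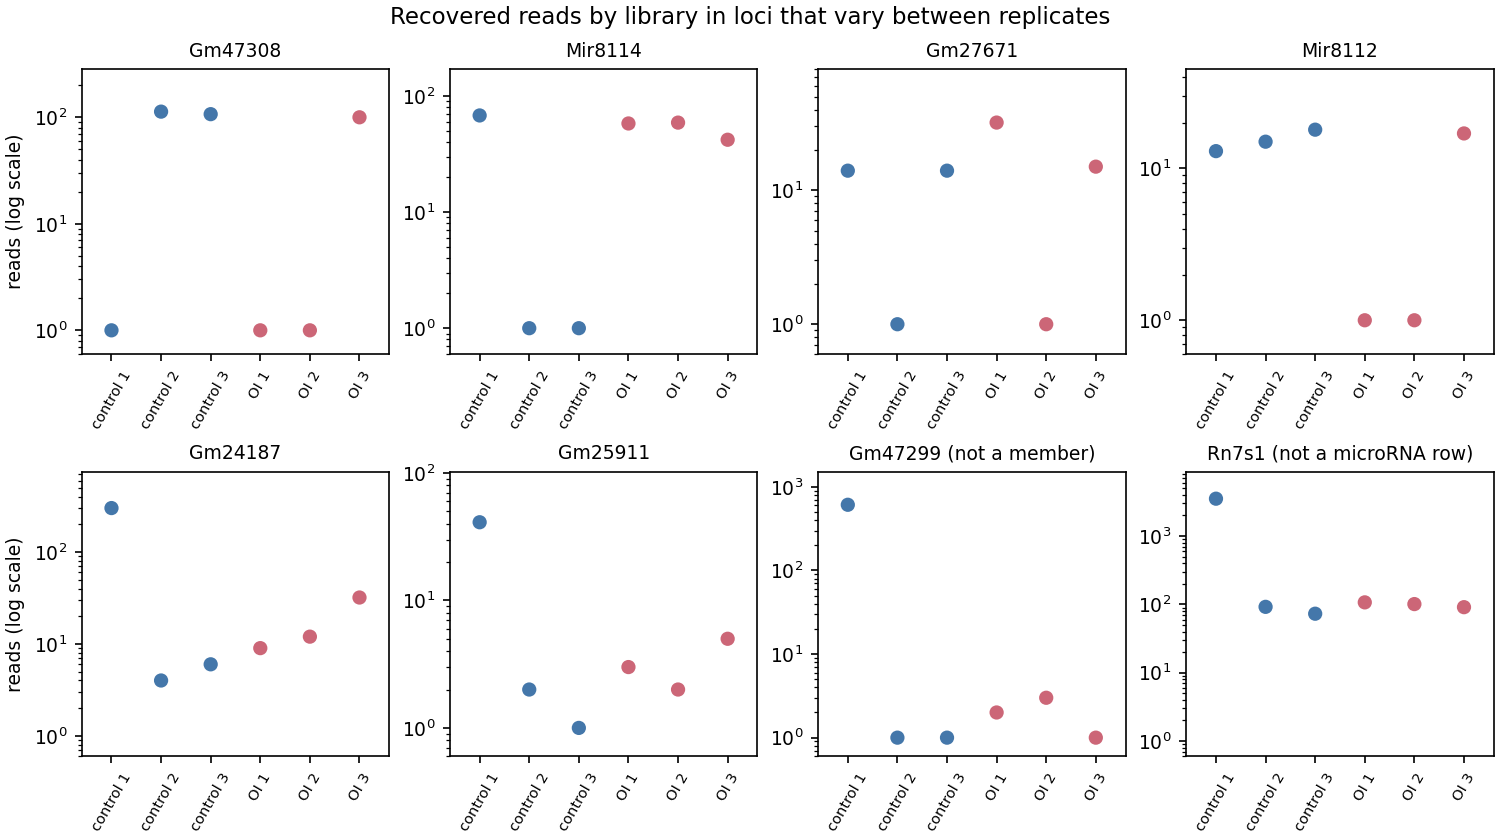
Recovered reads (log axis) in each of the 6 libraries, control in blue and OI in red, for 6 members and for 2 other rows, Gm47299 and Rn7s1. In the upper panels the 4 loci sit either at 1 read or at 13 reads and above, and in the lower panels control replicate 1 is the highest library.

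Opposite an exon lay 6 of the 10 members with the highest mean. A group of 9 loci of 138 to 141 bases faces coding sequence of H2A histone genes, or in 1 case the pseudogene Hist1h2al, and the 9 share 91.5% to 100% of their bases within each length. Histone H2A is a core protein of the nucleosome, encoded by many near-identical genes. Gm44350, Gm44359, Gm44394 and Gm44484, opposite Hist1h2ac, Hist1h2ad, Hist1h2ae and Hist1h2ab, are 100% identical, and each of the 9 has 28 to 45 near-identical copies, so reads may be split between them. The sequences of Gm44350 (chr13:23683535-23683672, + strand) and Gm44341 (chr13:51202698-51202835, + strand) are shown as the common form and the form opposite the pseudogene, with capitals where the latter differs.
Gm44350: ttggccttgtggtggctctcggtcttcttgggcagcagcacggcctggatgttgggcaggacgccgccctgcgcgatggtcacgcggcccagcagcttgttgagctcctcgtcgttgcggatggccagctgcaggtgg
Gm44341: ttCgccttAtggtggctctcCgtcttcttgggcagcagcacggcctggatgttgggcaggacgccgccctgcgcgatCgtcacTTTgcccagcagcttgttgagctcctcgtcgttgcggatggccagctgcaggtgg

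The highest of the histone group were Gm44364 (chr6:136808543-136808683, opposite H2afj) with 32.5, 38.3 and 44.9 FPKM in control and 37.1, 30.5 and 32.6 in OI, and Gm44313 (chr11:58954983-58955120, opposite Hist3h2a and untranslated sequence of Trim17) with 34.4, 36.1 and 34.8 against 31.1, 41.2 and 38.1. Both sets of libraries overlapped. Gm44341 stood at 14.5, 11.2 and 13.0 FPKM against 8.57, 12.6 and 11.8, beside 30.4, 34.7 and 36.1 against 30.9, 25.4 and 27.3 FPKM of Hist1h2al, the 1 histone row of these with values. The 4 identical loci were at 0.593 to 3.95 FPKM. Over the 9 loci the median difference was 0.03 on the log2(FPKM + 1) scale, 5 were above 0 and the lowest adjusted p (limma) was 0.362.

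A second pair faces genes of the Mex3 family, which encode RNA-binding proteins with KH domains. Gm22721 (chr10:80382302-80382384, + strand) lies opposite coding sequence of Mex3d and Mir1905 (chr3:88536301-88536382, - strand) opposite that of Mex3a. They are 80.7% identical, with 16 differences, and capitals mark the bases of Mir1905 that differ. A base that Mir1905 lacks is among the 16 and is not marked.
Gm22721: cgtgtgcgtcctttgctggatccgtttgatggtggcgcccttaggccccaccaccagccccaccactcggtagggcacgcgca
Mir1905: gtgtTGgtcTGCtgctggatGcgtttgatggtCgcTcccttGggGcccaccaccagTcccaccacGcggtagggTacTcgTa

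Gm22721 stood at 16.8, 20.9 and 15.7 FPKM in control and 16.9, 21.9 and 25.8 in OI. Mir1905 was lower in both groups, at 3.49, 4.00 and 2.03 against 7.97, 4.71 and 7.60. The libraries overlapped for Gm22721 and did not for Mir1905, in which the lowest OI library held 14 reads and the highest control library 10.

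The remaining loci opposite an exon had their own levels. Gm28033 (chr17:35868302-35868397) faces coding sequence of Ppp1r18, a phosphatase subunit that binds actin, and stood at 28.1, 25.9 and 23.6 FPKM against 30.2, 33.6 and 29.2, with each OI library above each control library. Gm25238 (chr19:60580529-60580617), opposite Cacul1, stood at 21.1, 27.6 and 23.6 against 17.1, 33.1 and 29.7, and Gm24082 (chr5:138606699-138606781), opposite Zfp68, at 23.2, 18.9 and 16.1 against 15.4, 23.6 and 18.8. Both of the latter overlapped. Mir6363 (chr16:50727132-50727245), opposite Dubr, a long non-coding RNA described in myoblast differentiation, stood at 1.44, 1.15 and 1.46 against 1.64, 2.42 and 2.05 FPKM, on 4 to 10 reads.

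Other loci opposite an exon did not separate the groups. Gm24157 (chr11:52099043-52099153) faces Ppp2ca, the catalytic subunit of protein phosphatase 2A, and held 64, 57 and 79 reads in control and 26, 69 and 40 in OI, a difference of -0.75 ± 0.31 on the log2(FPKM + 1) scale (SE; limma adjusted p 0.278). In FPKM, OI replicate 2 (17.1) lay above control replicate 2 (16.8) and the other 2 OI libraries lay below the 3 controls. Mir130c, opposite Kdelc2, held 18, 27 and 38 reads against 33, 39 and 31, and Mir6340, opposite Rab22a, an endosomal GTPase, 40, 48 and 43 against 48, 52 and 29. Gm27516 and Gm27530 face the related fork head genes Foxf2 and Foxf1 and are 93.9% identical. Gm27516 held 8, 15 and 16 reads against 11, 4 and 8, more than Gm27530 in each library but OI replicate 2. Mir8099-1 faces Lysmd1 and held 6, 6 and 8 reads against 10, 9 and 7. Its identical copy Mir8099-2, outside other genes, held 4, 5 and 9 against 7, 11 and 7, and reads of the pair cannot be assigned by sequence.

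Mir3074-1 (chr13:63301199-63301283) faces the microRNA Mir24-1, a member of the list of myoblast microRNAs, and untranslated sequence of 2010111I01Rik, and lies in an intron of Fancc. It stood at 17.8, 20.0 and 23.1 FPKM in control and 10.6, 14.6 and 16.5 in OI (37, 52 and 59 reads against 29, 45 and 36), with each OI library below each control library. Mir24-1 itself was listed at exactly 1 read in each library. Mir3074-2, 83.9% identical and facing Mir24-2, held 4, 2 and 5 reads against 5, 2 and 2.

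The 2 members on the fixed lists also face another microRNA row. Mirlet7e, of the let-7 family known for restraining growth genes, held 7, 2 and 3 reads in control and 8, 3 and 3 in OI, and the row Gm25927 on the other strand 3, 2 and 2 against 7, 4 and 1. Replicate 1 of each group was the highest for both rows. The mature strands of Mirlet7e are printed with the seed in capitals, and the seed of let-7e-5p is that of the let-7 family.
let-7e-5p: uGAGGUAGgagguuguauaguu
let-7e-3p: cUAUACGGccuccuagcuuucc

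Mir378a lies in an intron of Ppargc1b, a coactivator of mitochondrial genes, inside the opposite-strand row Gm25301. It held 2, 6 and 5 reads against 4, 7 and 5, and Gm25301 held 10, 11 and 9 against 4, 10 and 10. Neither separated the groups.

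Of the 26 loci in a same-strand intron, 19 (73.1%) lay within 5 bases of an exon of the same gene, against 158 of 516 other microRNA rows in such introns (30.6%). Reads that run from the exon into the locus and reads of the intron cannot be told apart in these tables. One, Mir7091 in Dnase1l1, spans its whole intron, as a mirtron does. The highest of the class was Mir5125 (chr17:23823291-23823369) in Srrm2, a scaffold of nuclear speckles, at 19.2, 17.0 and 18.1 FPKM in control and 19.3, 15.4 and 20.7 in OI, 155 bases from the nearest exon. Its libraries overlapped. Mir3100 touches an exon of Dmpk, a kinase of muscle whose repeat expansion causes myotonic dystrophy, and held 7, 7 and 8 reads in control and 9, 8 and 2 in OI. Mir3091, in the ribosomal protein gene Rps21, held 5, 7 and 7 against 9, 11 and 5, and Mir7091 3, 7 and 7 against 5, 5 and 5. These 3 also overlapped between groups. Mir6931, in Dcakd, held 5, 4 and 6 reads against 1, 5 and 1 and differed by -0.88 ± 0.29 (SE; limma adjusted p 0.213), with OI replicate 2 inside the control range.

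The 3 intronic loci that separated the groups each touch an exon. Mir7001 (chr2:93421929-93422007) in Cd82, a tetraspanin known from muscle stem cells, stood at 2.59, 2.07 and 2.11 FPKM in control and 0.788, 1.40 and 0.493 in OI, on 5, 5 and 5 against 2, 4 and 1 reads. Mir6909 (chr10:79531029-79531090) in Plpp2, a phospholipid phosphatase, stood at 0.660, 0 and 0.538 against 2.01, 1.78 and 1.26, on 1, 0 and 1 against 4, 4 and 2 reads. Mir6942 (chr13:21396578-21396638) in Zkscan3, a zinc finger repressor of autophagy genes, stood at 2.01, 1.61 and 1.09 against 2.04, 2.71 and 2.55, on 3, 3 and 2 against 4, 6 and 4 reads. OI was lower in the first and higher in the other two, and in each the nearest libraries of the groups differed by 1 read. Mir7662 (chr10:62194167-62194227), which shares 39 bases with an exon of Tspan15, a tetraspanin partner of ADAM10, is listed at 1 read in each control library and at 2, 3 and 3 reads in OI (1.02, 1.36 and 1.91 FPKM). As a same-strand locus at 1 read, it has no control level that is read as measured, so its separation of the groups is given as listed only.

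**Figure D3:**
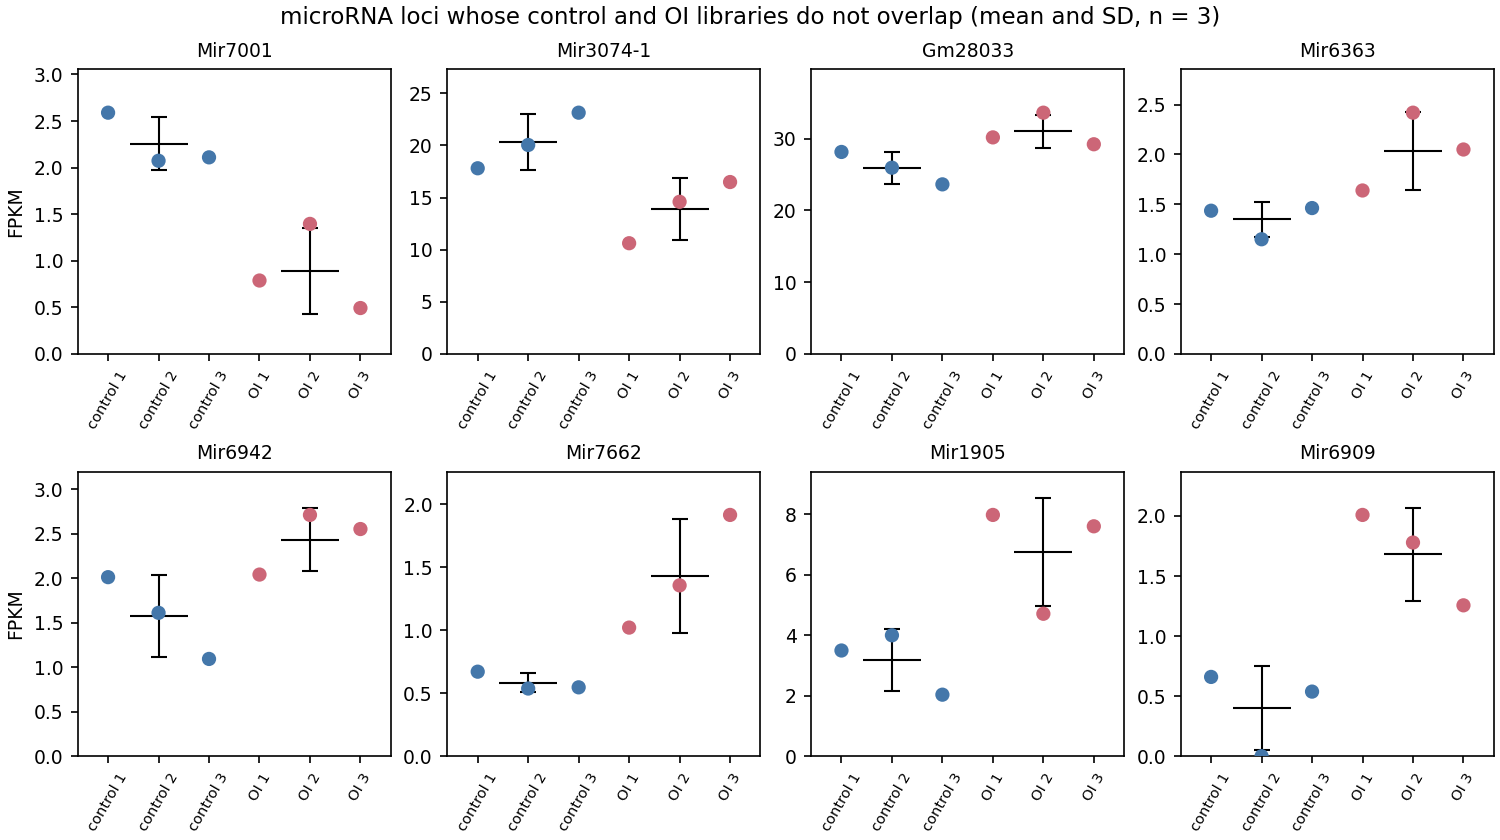
FPKM in each of the 6 libraries, control in blue and OI in red, for the 8 members whose groups do not overlap, with the group mean and SD (n = 3) as black bars and each axis from 0. OI libraries are lower in Mir7001 and Mir3074-1 and higher in the other 6 loci, of which Mir6909 and Mir7662 passed the level rule through OI alone and Mir7662 is listed at 1 read in each control library.

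Opposite an intron, Mir703 (chr5:98475556-98475664, within Cfap299) stood at 28.5, 26.5 and 21.4 FPKM in control and 37.7, 27.8 and 25.0 in OI. It is 98.2% identical to a stretch of Eef1a1, the translation elongation factor. The libraries overlapped, and the other 4 loci of this class had a mean of 1.14 to 1.70 FPKM, among them Mir684-1, which is 100% identical to a stretch of Sumo2 and held 1 to 5 reads.

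Outside other genes, Gm24187 (chr13:9834469-9834525, - strand) had the second highest mean of all members, through 1 library. It stood at 216, 2.30 and 3.51 FPKM in control and 4.92, 5.80 and 21.9 in OI (301, 4 and 6 reads against 9, 12 and 32). Gm25911 (chr1:167340369-167340424, - strand), 94.7% identical, held 41, 2 and 1 reads against 3, 2 and 5. Control replicate 1 was the highest library for both and OI replicate 3 the next, and both have 5 near-identical copies. The sequences show how close they are, with capitals at the bases of Gm25911 that differ. A base that Gm25911 lacks is the last of the 3 differences and is not marked.
Gm24187: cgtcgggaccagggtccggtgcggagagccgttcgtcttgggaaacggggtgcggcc
Gm25911: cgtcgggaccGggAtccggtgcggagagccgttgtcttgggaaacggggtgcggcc

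Other RNA stood apart in the same library. AY036118, a long non-coding row, was at 70761 FPKM in control replicate 1 and at 691 to 2450 in the other 5, and Rn7s1, a 7SL RNA of the signal recognition particle, at 480 against 8.11 to 11.8. Gm47304, a member within the 7SL row Rn7s6, is 100% identical to part of Rn7s1. It held 1, 3 and 3 reads in control and 4, 1 and 4 in OI. For Rn7s6, control replicate 1 held 209 reads and the other libraries 0 to 5. Gm47304 lies in a same-strand exon, so its 1 read in control replicate 1 is not read as a measured level. Whether it shared the high value of that library cannot be told. The part of these RNAs in the members' values was not tested.

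Between the groups, none of the 88 loci passed the test. The test was limma on log2(FPKM + 1) over all 1737 genes with 1 FPKM or more in at least 3 libraries, with Benjamini-Hochberg adjustment, at 0.05. It called 48 genes (2.76%; 1.15% higher in OI and 1.61% lower) and 0 members, whose lowest adjusted p was 0.101. At an unadjusted p under 0.05 there were 11 members, 6 higher in OI (Mir6909 and Mir7662, whose direction their choice fixed, among them) and 5 lower, against 17.8% of all genes tested. limma's voom fit on recovered reads tested 33 members and called 0 at a lowest adjusted p of 0.207, with 4 at an unadjusted p under 0.05 (all genes: 2.02% called and 14.6% unadjusted). The members lay evenly about 0, with 44 above and 44 below and a median of -0.01, against 44.6% above and a median of -0.02 over all genes tested.

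**Figure D4:**
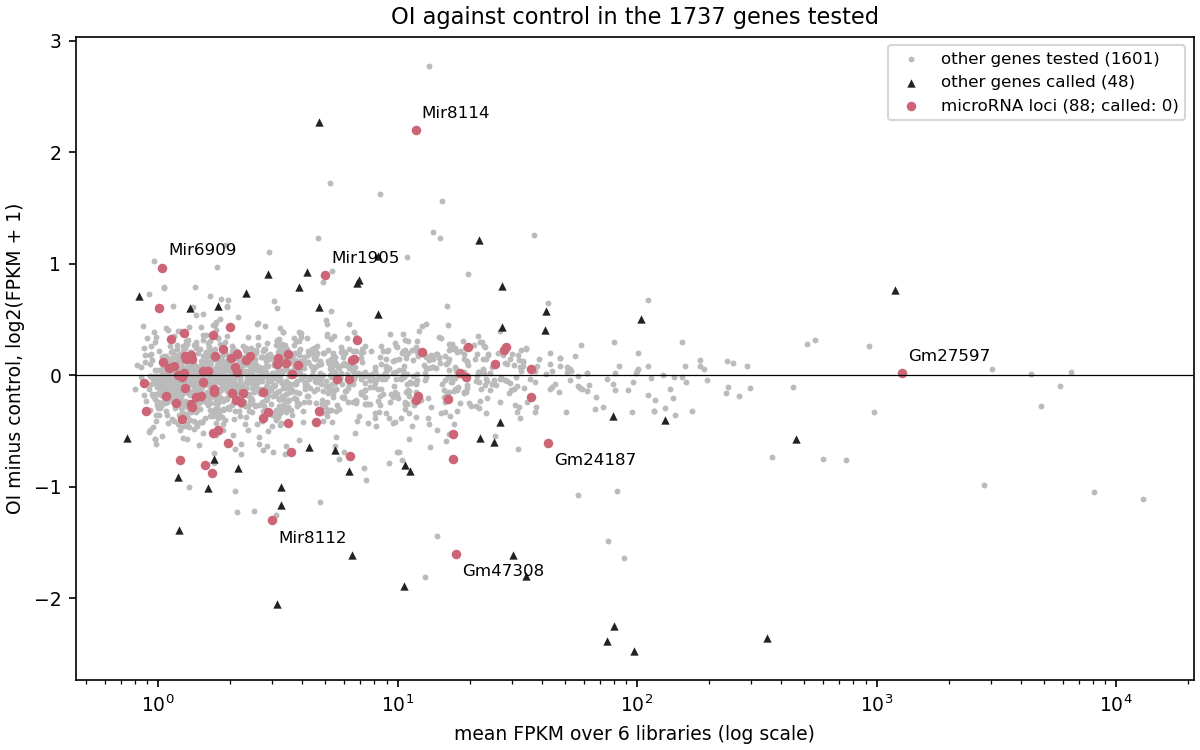
Difference between OI and control on the log2(FPKM + 1) scale against the mean FPKM over 6 libraries (log axis) for the 1737 genes tested, with other genes in grey, the 48 called genes as black triangles and the 88 microRNA loci in red. The red points lie on both sides of 0 and none was called, and the 2 farthest from 0, Mir8114 and Gm47308, are loci that held 1 read in some libraries.

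The 2 calls that came with 1 library left out were both loci at 1 read in some libraries. Without control replicate 1, Mir8114 was called higher in OI, by 3.64 ± 0.09 (SE) with an adjusted p (limma) of 0.000136, and with all libraries the difference was 2.20 ± 1.16 (adjusted p 0.387). Without OI replicate 3, Mir8112 was called lower in OI, at -2.06 ± 0.11 (adjusted p 0.00193), against -1.30 ± 0.62 (adjusted p 0.349) with all libraries. The left-out library is in each case the 1 of its group that did not match the other 2. Those other 2 are listed at 1 read, which in a same-strand exon is not read as a measured level. The sizes, SEs and p-values of these 2 calls rest on that listed value and are not read as a difference between the groups. Gm24187 was at -0.60 with all libraries and at 1.33 without control replicate 1, with adjusted p 0.900 and 0.388.

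Groups that do not overlap were found in 8 of 88 members (9.09%), 6 with OI higher and 2 with OI lower, against 23.6% of all genes tested (11.1% higher and 12.5% lower). Of the 6, Mir6909 and Mir7662 passed the level rule through the OI libraries alone, which fixed their direction, so no test of them is given. On the log2(FPKM + 1) scale, which understates changes of low genes, Mir7001 differed by -0.81 ± 0.19 (SE; limma adjusted p 0.101) and Mir3074-1 by -0.53 ± 0.17 (0.204). Mir7001 reached 1 FPKM in 3 control libraries and 1 OI library. With OI higher, Mir1905 differed by 0.90 ± 0.25 (adjusted p 0.142). Mir6942, Mir6363 and Gm28033 differed by 0.43 ± 0.16, 0.36 ± 0.13 and 0.25 ± 0.09 (adjusted p 0.245, 0.230 and 0.245). The sizes depend on the pseudocount: with 0.1 or 5 in place of 1, Mir7001 was at -1.34 or -0.30, Mir1905 at 1.08 or 0.52, Mir6942 at 0.63 or 0.18 and Mir6363 at 0.55 or 0.15, and none was called. With 1 library left out, 16 to 21 members (18.2% to 23.9%) did not overlap, against 31.4% to 35.3% of all genes tested. That no member was called with all 6 libraries does not show that the loci were alike in the groups. Members with many reads were not called either: the differences of Gm27597, Gm44364 and Gm44313 were 0.02, -0.20 and 0.06.

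For 16 members the files also hold values of a gene that contains or faces the locus. The pairs given here were picked after their values were seen and do not stand for the rest. Mir378a and Gm25301, which face each other, went in opposite directions, at 0.17 and -0.38 (limma adjusted p 0.800 and 0.541). In the following pairs locus and gene were both lower in OI. Mir6972 lies in an intron of Cfb, complement factor B, and differed by -0.22 (adjusted p 0.582), on 3, 6 and 4 reads in control and 3, 4 and 4 in OI, while Cfb stood at 1.62, 1.67 and 1.53 FPKM against 0.727, 0.956 and 0.896 and differed by -0.49 (limma adjusted p 0.0622). Mir7013 faces the antisense RNA Gm15265 and lies in an intron of Pi4kb. Its 5, 8 and 3 against 3, 4 and 2 reads gave -0.60 (adjusted p 0.280), and Gm15265, at 3.70, 4.04 and 4.11 against 4.92, 3.68 and 0.160 FPKM, gave -0.64 (adjusted p 0.644), with OI replicate 3 far below the rest. Gm44341 and Hist1h2al, described above, gave -0.22 and -0.27 (adjusted p 0.543 and 0.258). A locus and the gene around it can hold the same reads, so such pairs are not independent values.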

How the data were processed

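The authors deposited FPKM values, 1 table per sample. Per the labels' protocols, RNAiso Plus extracts went into libraries of the TruSeq RNA kit. Build mm10 and the tools StringTie 1.3.3b, HISAT2 2.1.0 and cutadapt 2.7 are named in the submitters' processing notes. Neither the strand setting nor the read layout was given in the sources used here.

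One row with a broken annotation was left out, and part of the gene identifiers and a second set of samples were not analysed here. Reads were recovered from FPKM times length: in genes of 1 exon, 100% of values were within 0.01 of a whole number, and such genes include all 88 members. Groups were compared with limma 3.58.1 (R 4.3.3) on log2(FPKM + 1), with trend and no replicate block, two-sided, and the fit was tested on simulated data. The alternatives were other pseudocounts (0.1 and 5), filters, scalings, voom, a replicate block and leaving out each library. Positions came from GENCODE M21, copies from BLAST+ 2.17.0 (E-value at most 1e-05) and sequences from RefSeq (mature strands) and GENCODE transcripts (loci).

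Members and lists were chosen with earlier results of these data known. Named loci were the 10 highest, up to 5 per direction of those with no overlap between groups, list members, and the 3 lowest inside and 3 highest outside the rule. Loci named beyond this rule were chosen after their values were seen.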

Additional observations from a re-analysis of the deposited data

How the results depend on the processing

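The number of called members was 0 under every alternative that used all 6 libraries, and 0 to 1 with 1 library left out. Over all genes the count was 48, against 14 with no filter on low values, 17 with the replicate block and 15 to 27 with 1 library left out. Deviations of same-numbered control and OI libraries correlated at 0.05, 0.14 and -0.08 over 1737 genes, so the numbers were not taken to pair the samples. The members numbered 33 when 3 libraries had to reach 10 reads, 23 at 5 FPKM and 51 with 1 FPKM in all 6 libraries. The share within an exon was 60.2% on either strand and 17.0% on the same strand alone. Non-overlapping members numbered 16 to 21 with 1 library left out, an alternative added after seeing the data. Among the named loci, 21 values changed sign and 275 kept sign and call. Gm24082 (-0.02) was at 0.008, 0.008 and 0.009 with median-of-ratios, quantile and voom scaling, and Gm27597 (0.02) at -0.13 with quantile scaling. With 1 library left out, Gm24187 ran from -1.69 to 1.33, Gm24082 from -0.17 to 0.13, Gm25238 from -0.081 to 0.375, Gm27597 from -0.041 to 0.054, Gm44313 from -0.026 to 0.17, Mir378a from -0.077 to 0.337, Mir5125 from -0.066 to 0.138, Mir7046 from -0.31 to 0.33 and Mirlet7e from -0.24 to 0.41. Causes were not tested. Of low loci the sizes moved with the pseudocount: with 0.1 or 5 in place of 1, Mir7046 (-0.07) was at -0.61 or -0.01, Mir6909 (0.96) at 2.26 or 0.31 and Mir7662 (0.60) at 1.12 or 0.20. Depth was lowest in the 36 members with a median under 5 reads.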
